A study of Saccharomyces cerevisiae with 44 samples.

Results

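The arms of budding yeast chromosome VII were followed here as 20019 of the 241434 50-bp bins in the replication profiles. They are the bins more than 25 kb from the centromere, taken at 497.0 kb, and more than 20 kb from either chromosome end. The left arm holds 9040 of them (452.0 kb) and the right arm 10979 (548.95 kb). The rule used positions only. Within these bins, 9 origins were named, of 154 in the genome. An origin here is a peak that reached at least 2 times the genome mean in the averaged BrdU-IP profile of all 20 libraries and was the highest point within 5 kb. From the left end the 4 left-arm origins are called L4, L3, L2 and L1, and the 5 right-arm origins, from the centromere outward, R1 to R5. The weakest origin inside the threshold, L4, had 2.11 times the mean in that averaged profile, and the highest peaks just outside it had 1.87 (at 816.7 kb) and 1.86 (at 979.85 kb).

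Replication starts at origins, where an inactive helicase is loaded in G1 phase and is activated in S phase by the Dbf4-dependent kinase, of which Dbf4 is the regulatory subunit and Cdc7 the catalytic one. Dbf4 is scarce, so origins that attract it tend to fire early. It is brought to origins near centromeres through Ctf19, a kinetochore protein, and to many arm origins through the forkhead transcription factors Fkh1 and Fkh2. Hydroxyurea starves cells of deoxynucleotides, so forks that leave an early origin travel only a short way, and the thymidine analog BrdU marks the DNA they make.

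The study compared 10 strains, all W303 derivatives that lack BAR1 and carry a cassette that lets the cells take up BrdU. dbf4∆C lacks the C-terminal stretch of Dbf4, which holds a zinc finger. dbf4-Zn*1 carries C661A and C664A, and dbf4-Zn*2 carries H680C, all 3 within that finger, with positions counted from the start of the protein. The other mutants were ctf19∆, fkh1∆, fkh1∆ fkh2-dsm (FKH1 deleted and FKH2 replaced by the dsm allele), the triple mutant ctf19∆ fkh1∆ fkh2-dsm and the double mutants fkh1∆ dbf4-Zn*1 and fkh1∆ dbf4-Zn*2, and the reference was WT. Cells were arrested in G1 with α-factor at 23 °C and released into 200 mM hydroxyurea with 400 µg/mL BrdU for 60 min by the labels. For dbf4∆C the study's methods name a longer release than the labels do, so genotype and release time cannot be told apart in any dbf4∆C comparison below. The cassette sits at ura3 in ctf19∆, fkh1∆, fkh1∆ fkh2-dsm and ctf19∆ fkh1∆ fkh2-dsm and at leu2 in WT and the other strains, so for the ura3 strains genotype and cassette site cannot be told apart. Each strain gave 2 replicates, each with a BrdU-IP library and a Total library, which holds the DNA before precipitation. In addition, Dbf4 binding in α-factor-arrested cells was measured by ChIP-seq with an N-terminal FLAG tag, in FLAG-dbf4-aaHH, the zinc finger allele of dbf4-Zn*1, and in FLAG-Dbf4, with 2 replicates each. The ChIP strains are sister isolates whose strain numbers the labels and the study's methods give the opposite way round.

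Levels below are the mean count per bin in a 500-bp window on the peak, divided by the library's own mean per bin, so a level of 1 is the genome mean. IP libraries summed to between 281531 counts (fkh1∆ fkh2-dsm, replicate 2) and 13959837 (fkh1∆, replicate 1), and the median window of a chromosome VII arm origin held between 47 and 2644 counts. The shallowest library, fkh1∆ fkh2-dsm replicate 2, had 3 counts in its emptiest member window. Because levels are relative within a library, a general loss of origin signal moves every origin. The median log2 change of all 154 origins against WT was -2.71 in dbf4∆C, -1.21 in dbf4-Zn*1 cells and in dbf4-Zn*2, -0.77 in ctf19∆, -0.94 in fkh1∆ fkh2-dsm, -1.24 in ctf19∆ fkh1∆ fkh2-dsm, -0.58 in fkh1∆, -1.55 in fkh1∆ dbf4-Zn*1 and -1.48 in fkh1∆ dbf4-Zn*2. Changes of single origins are therefore also set against these medians, and against a fit scaled on the origin windows themselves (TMM), which removes most of the shared shift. All comparisons with WT share the same WT libraries.

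The origins lie 32.15 to 154.05 kb apart. On the files' coordinates, whose build is not named, L4 peaked at 203.85 kb (window 203601 to 204100), 293.1 kb from the centromere. L3 peaked at 285.9 kb (285651 to 286150), L2 at 389 kb (388751 to 389250) and L1 at 421.15 kb (420901 to 421400), 75.8 kb from the centromere. By the RefSeq R64 gene order, the L4 window falls in YGL159W beside AIM14. The L3 window falls in COQ8, a coenzyme Q synthesis gene, beside the RNA helicase gene PRP43, and that of L2 in DUO1, which encodes a kinetochore (DASH complex) protein, beside the pyruvate carboxylase gene PYC1. L1 lies between HEM2, a haem synthesis gene, and the tRNA gene SUP54.

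On the right arm, R1 peaked at 575.2 kb (574951 to 575450), 78.2 kb from the centromere, in YGR039W and KSS1, a mitogen-activated kinase gene. R2 peaked at 711.8 kb (711551 to 712050) inside YGR109W-B. R3 peaked at 778.2 kb (777951 to 778450) between SKN1 and the tRNA gene SUF4. R4 peaked at 834.6 kb (834351 to 834850) in PEX35, a peroxisome gene, and PUS6, a pseudouridine synthase gene. R5 peaked at 888.3 kb (888051 to 888550), 391.3 kb from the centromere, between XKS1, the xylulokinase gene, and SKI6, which encodes a subunit of the RNA exosome. Of the 9 windows, 3 (L1, R3 and R5) held no annotated gene.

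In WT the 9 origins differed widely in level. R5 and R4 were the highest, at 21.2 and 22.4 (R5) and 16.9 and 20.1 (R4) in the 2 WT replicates, and R2 the lowest, at 3.86 and 2.78. L1 (12.2 and 14.5), L3 (11.8 and 12.7), L2 (10.0 and 10.2) and R3 (8.95 and 11.4) stood between, above L4 (6.49 and 7.50) and R1 (5.93 and 5.37). The ranges of R5 and R4 did not overlap, those of L1 and L3 did, and those of L2 and R3 did too. The median of the 9 was 10.7 ± 0.986 (SD, n = 2) in WT, against 11.6 ± 0.532 for the other 145 origins, a difference within the spread of the replicates. Within each WT library the 9 had the lower median, at 10.0 against 11.2 in replicate 1 and 11.4 against 12.0 in replicate 2. This was not tested.

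**Figure D1:**
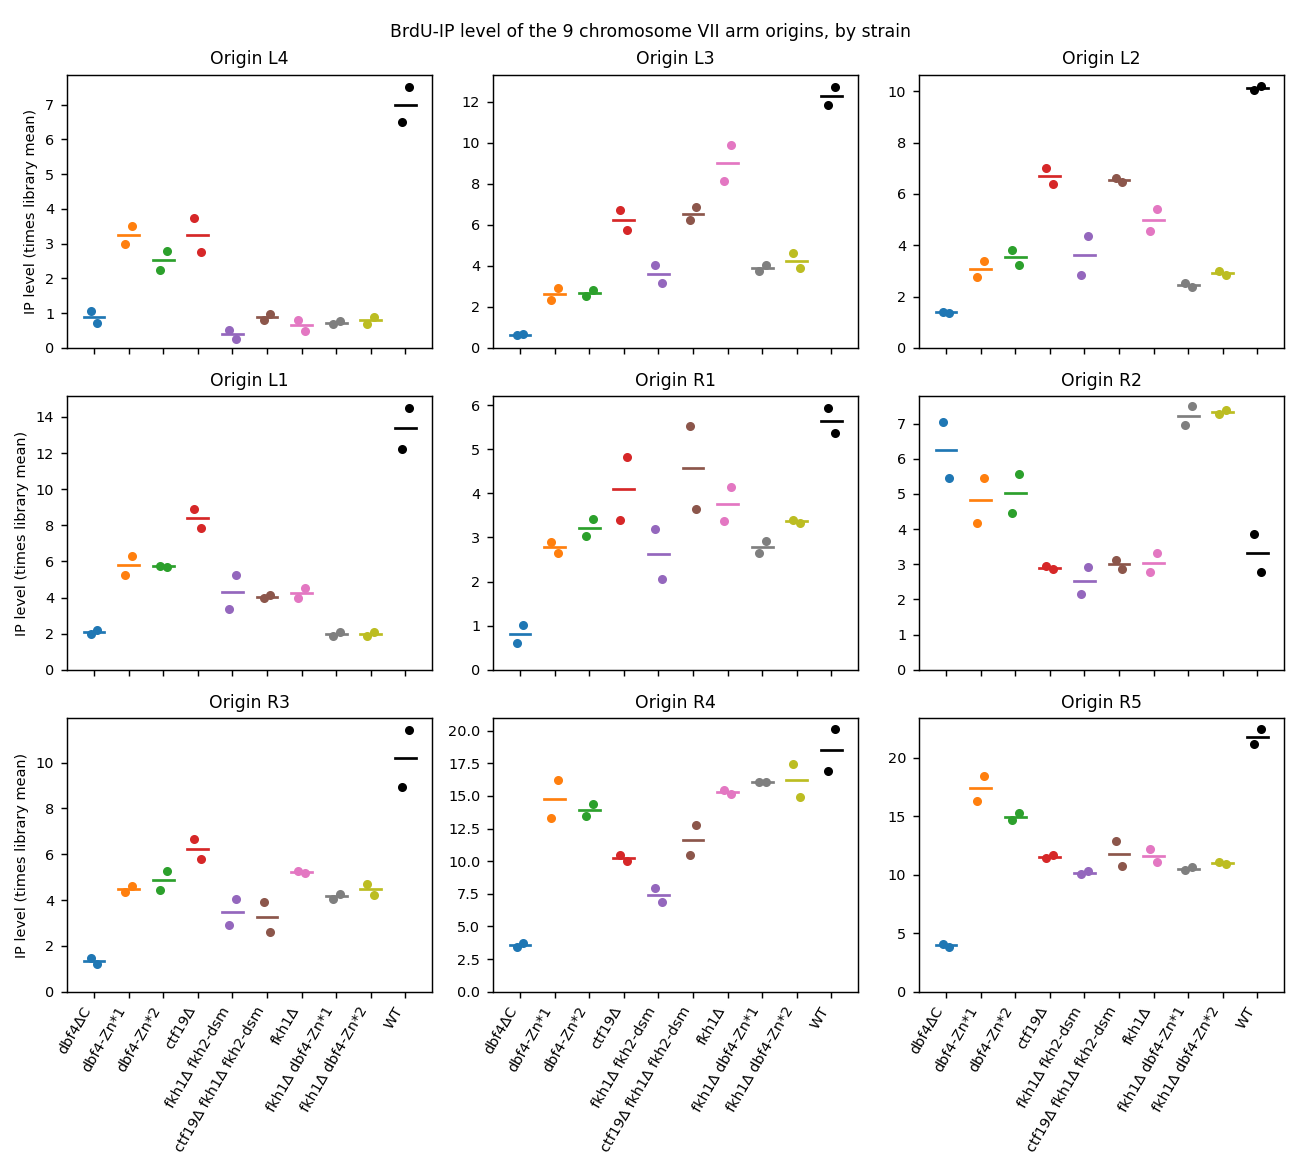
BrdU-IP level (times the library mean) of each of the 9 chromosome VII arm origins, by strain, with 1 point per replicate, a bar at the mean of 2, and a separate linear axis for each origin. L4 lies at or under 1.07 in all 5 strains without Fkh1 and in dbf4∆C, R4 is at 13.3 or more in dbf4-Zn*1, dbf4-Zn*2, fkh1∆ and both fkh1∆ dbf4-Zn* strains, and R2 is lower in WT than in dbf4∆C.

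The left-arm origin L3 lost the most signal when the Dbf4 C-terminus or its zinc finger was altered. L3 stood at 0.635 and 0.670 in dbf4∆C cells, 2.31 and 2.94 in dbf4-Zn*1 cells and 2.55 and 2.81 in dbf4-Zn*2 cells, against 11.8 and 12.7 in WT, with no overlap. In dbf4∆C both replicates were below the genome mean of 1. Its log2 change against WT was -4.23 ± 0.22 (SE) in dbf4∆C, -2.24 ± 0.20 in dbf4-Zn*1 cells and -2.20 ± 0.19 in dbf4-Zn*2, with adjusted p of 5.18e-17, 3.32e-11 and 3.92e-11 by edgeR's quasi-likelihood test. Set against the median of all origins these changes were -1.52, -1.02 and -0.99, and L3 remained lower under TMM in these 3 strains (-1.70, -1.26 and -1.22).

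L3 answered the loss of Fkh1 in another way. It held 8.12 and 9.87 in fkh1∆, a log2 change of -0.45 ± 0.18 against WT (adjusted p = 0.028, edgeR) that is smaller than the median over all origins, and 4.06 and 3.17 in fkh1∆ fkh2-dsm, a change of -1.74 ± 0.22 against WT. The fkh1∆ fkh2-dsm replicates lay below those of fkh1∆ with a difference of -1.28 ± 0.22 (adjusted p = 2.89e-05, edgeR), which was the largest fall among the 9 origins in that comparison. With the zinc finger mutations, L3 was higher without Fkh1, at 3.74 and 4.03 in fkh1∆ dbf4-Zn*1 against 2.31 and 2.94 in dbf4-Zn*1 cells, and at 4.61 and 3.90 in fkh1∆ dbf4-Zn*2 against 2.55 and 2.81 in dbf4-Zn*2. The differences were 0.58 ± 0.19 and 0.68 ± 0.19 (adjusted p = 0.00872 and 0.0024, edgeR), and 0.89 and 0.88 under TMM. In ctf19∆ and ctf19∆ fkh1∆ fkh2-dsm, L3 held 6.74 and 5.75 and 6.22 and 6.86, ranges that overlap.

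The left-arm origin L4 was low in every strain without Fkh1. L4 passed the peak threshold, at 2.11, through strains that have Fkh1, and the 979.85-kb peak, high without Fkh1, missed it at 1.86, so the direction at L4 is partly set by the choice of origins and its values are a description. It stood at 0.806 and 0.499 in fkh1∆, 0.514 and 0.257 in fkh1∆ fkh2-dsm and 0.789 and 0.980 in ctf19∆ fkh1∆ fkh2-dsm, against 6.49 and 7.50 in WT. In fkh1∆ dbf4-Zn*1 it stood at 0.688 and 0.770 and in fkh1∆ dbf4-Zn*2 at 0.686 and 0.892, against 2.98 and 3.51 in dbf4-Zn*1 cells and 2.25 and 2.80 in dbf4-Zn*2. All 10 libraries without Fkh1 were under the genome mean at this origin. Against WT the log2 change was -3.30 ± 0.27 in fkh1∆, -4.07 ± 0.40 in fkh1∆ fkh2-dsm cells and -3.00 ± 0.31 in ctf19∆ fkh1∆ fkh2-dsm, and in each of these comparisons L4 fell most of the 9 origins. Against the strain with the same DBF4 or CTF19 allele and Fkh1 present, it was -2.14 ± 0.26 in fkh1∆ dbf4-Zn*1, -1.67 ± 0.26 in fkh1∆ dbf4-Zn*2 and -1.95 ± 0.32 in ctf19∆ fkh1∆ fkh2-dsm. Under TMM these 6 changes were -2.72, -3.30, -2.00, -1.83, -1.45 and -1.59. L4 held 1.07 and 0.728 in dbf4∆C, and 3.75 and 2.75 in ctf19∆, where the change of -1.06 ± 0.26 against WT was the largest fall of the arm and -0.41 under TMM (adjusted p = 0.22, edgeR).

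L1, the highest left-arm origin of WT, was also lower without Fkh1 in each background. It held 3.97 and 4.51 in fkh1∆, 3.34 and 5.23 in fkh1∆ fkh2-dsm and 3.97 and 4.12 in ctf19∆ fkh1∆ fkh2-dsm, against 12.2 and 14.5 in WT. It held 1.87 and 2.10 in fkh1∆ dbf4-Zn*1 and 1.87 and 2.08 in fkh1∆ dbf4-Zn*2, against 5.26 and 6.30 in dbf4-Zn*1 cells and 5.76 and 5.69 in dbf4-Zn*2. The range of the 4 double-mutant libraries overlapped that of dbf4∆C, with 2.01 and 2.23. Loss of Fkh1 changed L1 by -1.66 ± 0.19 against WT, by -1.53 ± 0.19 against dbf4-Zn*1 and by -1.54 ± 0.19 against dbf4-Zn*2 (log2, adjusted p = 2.25e-08, 7.57e-08 and 8.95e-08, edgeR), and the difference of these effects from the one in WT was 0.13 ± 0.27 for either allele. Adding fkh2-dsm to fkh1∆ moved L1 by -0.02 ± 0.23 (adjusted p = 0.96, edgeR). In ctf19∆, L1 held 8.93 and 7.87, -0.65 ± 0.19 against WT and close to the all-origin median, and -0.01 under TMM.

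L2 took a middle place on the left arm. It ranged from 1.37 to 1.39 in dbf4∆C, 2.75 to 3.82 in the 4 libraries of dbf4-Zn*1 and dbf4-Zn*2 and 2.37 to 2.98 in the 4 of fkh1∆ dbf4-Zn*1 and fkh1∆ dbf4-Zn*2, against 10.0 and 10.2 in WT. Its changes of -1.74 and -1.51 in dbf4-Zn*1 and dbf4-Zn*2 were larger than the median change and held under TMM (-0.77 and -0.52). Loss of Fkh1 changed L2 by -1.03 ± 0.19 against WT (adjusted p = 2.6e-05, edgeR), but by -0.32 and -0.29 against dbf4-Zn*1 and dbf4-Zn*2, where it did not pass (adjusted p = 0.148 and 0.177, edgeR).

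The right-arm origins R4 and R5 kept the most signal in the zinc finger mutants. R4 held 13.3 and 16.3 in dbf4-Zn*1 cells and 13.5 and 14.4 in dbf4-Zn*2 cells, against 16.9 and 20.1 in WT. R5 held 16.3 and 18.4 in dbf4-Zn*1 cells and 14.6 and 15.3 in dbf4-Zn*2 cells, against 21.2 and 22.4 in WT. The mutant and WT ranges did not overlap, but the falls were small. The log2 change was -0.32 ± 0.13 and -0.40 ± 0.13 at R4 and -0.33 ± 0.12 and -0.54 ± 0.12 at R5, 0.67 to 0.89 above the all-origin median of -1.21, and under TMM both origins were called higher in both strains (0.65 and 0.58 at R4, 0.64 and 0.44 at R5).

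R4 and R5 parted ways once Fkh1 was lost as well. R4 held 16.1 and 16.1 in fkh1∆ dbf4-Zn*1 and 17.4 and 15.0 in fkh1∆ dbf4-Zn*2, no lower than in the dbf4-Zn* strains, with differences of 0.12 ± 0.13 and 0.22 ± 0.13 (adjusted p = 0.416 and 0.141, edgeR). R5 held 10.4 and 10.7 in fkh1∆ dbf4-Zn*1 and 11.1 and 10.9 in fkh1∆ dbf4-Zn*2, below every dbf4-Zn* library, with differences of -0.72 ± 0.12 and -0.44 ± 0.12 (adjusted p = 5.28e-06 and 0.00184, edgeR). The same split stood in fkh1∆ itself, where R4 held 15.4 and 15.1 (-0.27 ± 0.13 against WT, adjusted p = 0.0698, edgeR) and R5 held 12.2 and 11.1 (-0.90 ± 0.12, adjusted p = 2.93e-07, edgeR). R4 was also lower with fkh2-dsm. It held 7.97 and 6.86 in fkh1∆ fkh2-dsm against 15.4 and 15.1 in fkh1∆, a log2 difference of -1.03 ± 0.15 (adjusted p = 3.61e-06, edgeR; -0.84 under TMM), where R5 held 10.1 and 10.3 in fkh1∆ fkh2-dsm and differed from fkh1∆ by -0.20 ± 0.14 (adjusted p = 0.237, edgeR).

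With CTF19 also deleted, R4 and R5 stood at 10.5 and 12.7 and 12.9 and 10.7 in ctf19∆ fkh1∆ fkh2-dsm, against 10.4 and 9.98 and 11.4 and 11.7 in ctf19∆, differences of 0.17 and 0.04 that did not pass the test under library scaling and of 0.54 and 0.40 that did under TMM. In dbf4∆C both origins were low, at 3.45 and 3.74 (R4) and 4.09 and 3.83 (R5), yet they were the highest of the arms after R2. R4 and R5 together held 36.0% ± 1.95 (SD, n = 2) of the summed level of the 9 origins in dbf4∆C, 54.6% ± 0.057 in dbf4-Zn*1, 51.2% ± 0.684 in dbf4-Zn*2, 53.4% ± 0.947 in fkh1∆ dbf4-Zn*1 and 52.0% ± 1.09 in fkh1∆ dbf4-Zn*2, against 39.4% ± 0.457 in WT. Without R2 the dbf4∆C share was 51.2%, against 40.8% in WT.

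R1 and R3 fell with most other origins. R1, a weak origin, held 0.600 and 1.01 in dbf4∆C and 2.65 to 3.41 in the 4 libraries of dbf4-Zn*1 and dbf4-Zn*2, against 5.93 and 5.37 in WT, and under TMM it was called in 1 of the 9 comparisons with WT (0.70 in ctf19∆ fkh1∆ fkh2-dsm). R3 held 1.48 and 1.22 in dbf4∆C and 4.36 to 5.29 in those 4 libraries, against 8.95 and 11.4 in WT. R3 was lowest among strains with intact DBF4 when Fkh1 and Fkh2 function was missing, at 2.93 and 4.03 in fkh1∆ fkh2-dsm and 3.90 and 2.63 in ctf19∆ fkh1∆ fkh2-dsm, against 6.67 and 5.80 in ctf19∆. The difference of ctf19∆ fkh1∆ fkh2-dsm from ctf19∆ was -0.92 ± 0.22 (adjusted p = 0.000618, edgeR; -0.57 under TMM).

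Counted over the arm, the fall was general. In dbf4∆C, dbf4-Zn*1 and dbf4-Zn*2, 8 of the 9 origins were lower than in WT and R2 was higher, where 96.1%, 77.3% and 80.5% of all 154 origins were lower and 1.95%, 3.25% and 3.25% higher. In ctf19∆ 7 of the 9 were lower (74.7% of all), in fkh1∆ fkh2-dsm 8 (62.3%), in ctf19∆ fkh1∆ fkh2-dsm 7 (74.7%) and in fkh1∆ 7 (63.6%). In fkh1∆ dbf4-Zn*1 and fkh1∆ dbf4-Zn*2, 7 were lower (83.8% and 83.1% of all) and R2 was higher (5.19% and 7.14% of all). Falls were the most frequent call among all origins too, and the counts over 9 members were not tested against them.

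The spread between origins says more than the count. Scaled on the origin windows (TMM), 1 member was lower and 1 higher in dbf4∆C (39.6% and 22.7% of all origins). In dbf4-Zn*1 and in dbf4-Zn*2, L3 and L2 were lower (41.6% and 42.2% of all) and R2, R4 and R5 higher (27.3% and 27.9%). No left-arm member was called higher and no right-arm member lower in these 3 strains. In fkh1∆ fkh2-dsm 7 were lower (43.5% of all) and none higher, where DESeq2 called 1 higher and 7 members in either direction had an unadjusted p under 0.05 by edgeR. In ctf19∆ fkh1∆ fkh2-dsm 3 were lower (45.5%) and 3 higher (31.2%), and in fkh1∆ 4 were lower (27.3%) and 1 higher (28.6%). In fkh1∆ dbf4-Zn*1 4 were lower (42.2%) and 3 higher (32.5%), and in fkh1∆ dbf4-Zn*2 3 and 3 (39.6% and 31.2%). In ctf19∆ 1 member was lower (R5, -0.28; 27.3% of all). Over the 9 comparisons with WT, the left-arm origins L4, L3, L2 and L1 were below the all-origin median in 8, 7, 7 and 6, and R1, R2, R3, R4 and R5 in 3, 0, 4, 2 and 3. These are descriptions of 9 origins over strains that share WT, not a test of arm against arm. With the Total library's sum as the size of each IP library, no member passed in any comparison, and at most 1 member in a comparison had an unadjusted p under 0.05. That scaling sets the 2 WT replicates far apart. Their IP libraries summed to 5952588 and 972119 counts and their Total libraries to 9857420 and 10216831. A spread of that size could hide such changes, so the absence of calls decides nothing here.

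**Figure D2:**
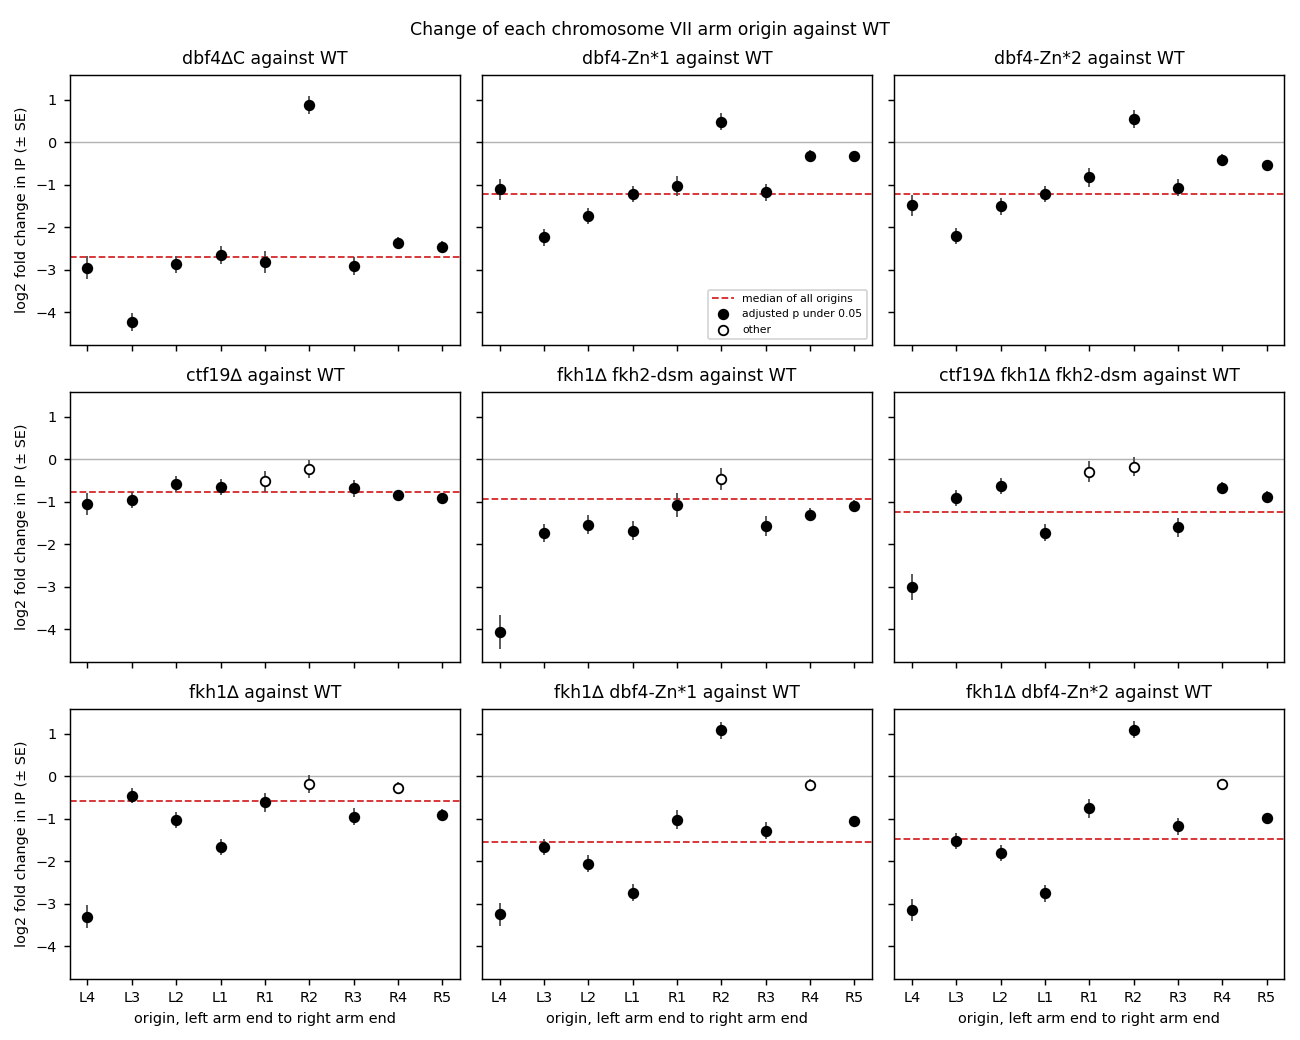
Log2 change in IP level of the 9 chromosome VII arm origins in each mutant against WT, with SE, filled where the adjusted p of edgeR is under 0.05; the red dashed line is the median of all 154 origins. L3 is lowest in the DBF4 single mutants, L4 in the strains without Fkh1, and R2 stands above the line in all 9 comparisons.

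R2 behaved unlike the other 8 origins. It held 7.05 and 5.46 in dbf4∆C cells, 4.18 and 5.45 in dbf4-Zn*1, 4.47 and 5.58 in dbf4-Zn*2, 6.95 and 7.51 in fkh1∆ dbf4-Zn*1 and 7.27 and 7.37 in fkh1∆ dbf4-Zn*2, against 3.86 and 2.78 in WT. It was the only member called higher than in WT under library scaling, and in dbf4∆C it was the highest of the 9. The R2 window was placed on the average of all 20 libraries, most of them from mutants, where it stood at 5.06. The WT peak at 715.2 kb stood at 3.29 there and, lying within 5 kb of R2, was not named an origin. The direction at R2 is therefore partly set by the choice of origins, and its calls are a description. The log2 change was 0.88 ± 0.21 in dbf4∆C, 1.09 ± 0.20 in fkh1∆ dbf4-Zn*1 and 1.10 ± 0.20 in fkh1∆ dbf4-Zn*2 (adjusted p = 0.000208, 1.4e-05 and 1.19e-05, edgeR). The smaller rises of 0.49 in dbf4-Zn*1 and 0.55 in dbf4-Zn*2 were not called without WT replicate 2 (0.31 and 0.37), without dbf4-Zn*1 replicate 2 (0.30) or without dbf4-Zn*2 replicate 2 (0.39). R2 was also higher in fkh1∆ dbf4-Zn*1 than in dbf4-Zn*1 (0.60 ± 0.20), a call that was lost without dbf4-Zn*1 replicate 1 (0.41) or fkh1∆ dbf4-Zn*1 replicate 2 (0.54), each of which left 3 of the 5 calls of that comparison, and in fkh1∆ dbf4-Zn*2 than in dbf4-Zn*2 (0.55 ± 0.20). In ctf19∆, fkh1∆, fkh1∆ fkh2-dsm and the triple mutant it ranged from 2.16 to 3.31 and did not pass against WT.

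In the Total libraries R2 was already high in WT, and under library scaling it was not called in dbf4∆C, dbf4-Zn*1 or dbf4-Zn*2. There R2 stood at 2.34 and 2.19 in dbf4∆C cells, 2.06 and 2.00 in dbf4-Zn*1, 2.62 and 2.56 in fkh1∆ dbf4-Zn*1 and 2.79 and 2.51 in fkh1∆ dbf4-Zn*2, against 2.12 and 1.98 in WT. Of the other 8 origins only R4 reached Total levels above 2, in ctf19∆ fkh1∆ fkh2-dsm replicate 2 and both fkh1∆ dbf4-Zn* strains. In ctf19∆ the Total level of R2 was 1.44 and 1.19, -0.64 ± 0.15 against WT (adjusted p = 0.00127, edgeR). In fkh1∆ fkh2-dsm it was 1.23 and 1.39, -0.70 ± 0.18 against WT (adjusted p = 0.00204, edgeR). How far the copy number of YGR109W-B sequence or reads shared with other loci enter the IP value of R2 was not tested.

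Around R2, the WT peak was elsewhere. In 500-bp tiles, WT reached 9.81 at 3.25 kb to the right of the R2 peak bin, at a site at 715.2 kb in CLD1, a cardiolipin deacylase gene, and 5.45 at 0.25 kb. In dbf4∆C the same tiles held 0.81 and 7.23, in dbf4-Zn*1 2.75 and 6.35 and in fkh1∆ dbf4-Zn*1 1.29 and 10.4. The peak at R2 was narrow, with 0.77 at 1.25 kb in fkh1∆ dbf4-Zn*1. Total in WT peaked at R2 too, with 2.46 at 0.25 kb and 0.94 at 0.75 kb. Whether the R2 peak reflects firing was not tested. The 715.2-kb site, found as a peak in the WT profile, stood at 0.918 and 0.761 in dbf4∆C cells, 3.26 and 2.45 in dbf4-Zn*1, 2.44 and 2.94 in dbf4-Zn*2, 6.94 and 4.77 in ctf19∆ and 2.49 and 2.57 in fkh1∆, against 10.1 and 11.0 in WT. It was chosen on its WT level, so these values carry no test. The site was thus also low in fkh1∆, where R2 did not pass against WT.

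**Figure D3:**
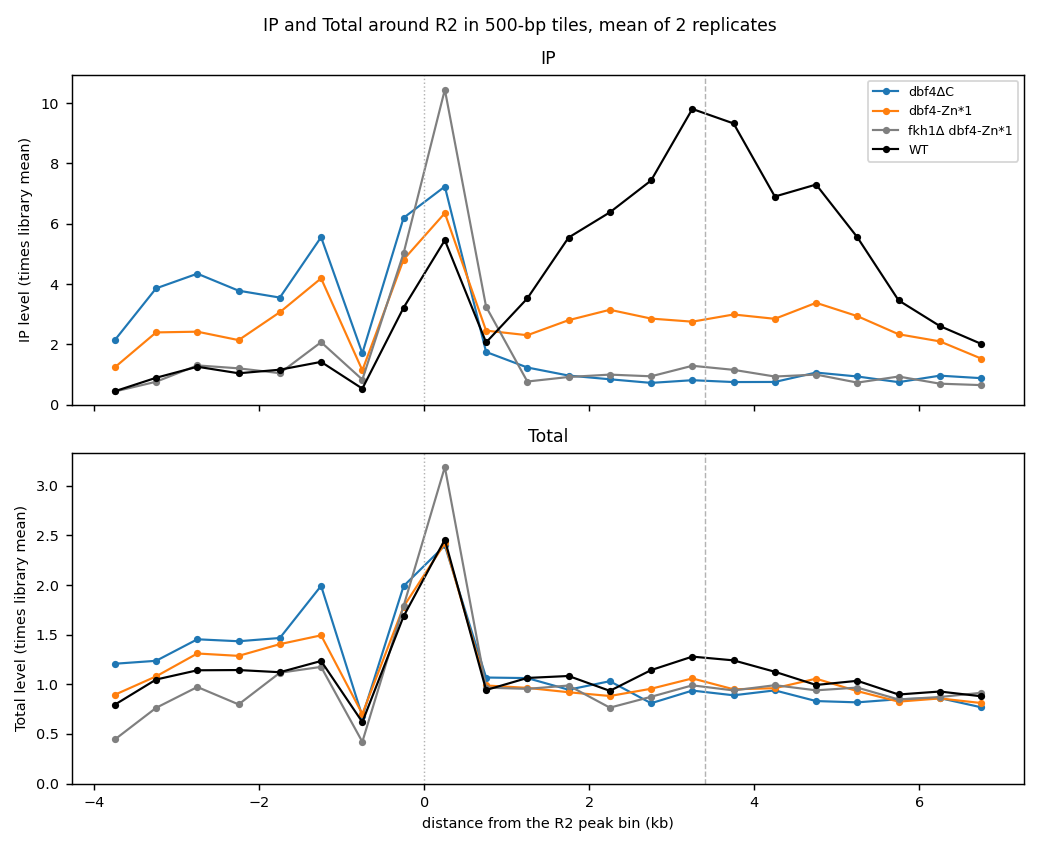
IP (upper) and Total (lower) levels in 500-bp tiles around the R2 peak bin (dotted line), mean of 2 replicates, in dbf4∆C, dbf4-Zn*1, fkh1∆ dbf4-Zn*1 and WT; the dashed line marks the 715.2-kb site. At 0.25 kb all 4 strains have a peak in IP (5.45 or more) and in Total (2.40 or more), whereas at the dashed line WT reaches 9.81 in IP and the 3 mutants 2.75 or less.

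The reach of the signal around R4 and R5 was far wider in the DBF4 mutants. In the flanks from 2.5 to 10 kb on both sides, R4 stood at 4.16 and 4.09 in dbf4∆C cells, 5.67 and 5.51 in dbf4-Zn*1 cells and 5.12 and 5.22 in dbf4-Zn*2 cells, against 1.42 and 1.29 in WT. R5 flanks stood at 4.19 and 3.95 in dbf4∆C cells, 7.99 and 7.48 in dbf4-Zn*1 cells and 7.34 and 7.07 in dbf4-Zn*2 cells, against 1.75 and 1.55 in WT. The log2 changes were 1.60 ± 0.09, 2.04 ± 0.09 and 1.93 ± 0.09 at R4 and 1.30 ± 0.09, 2.22 ± 0.09 and 2.12 ± 0.09 at R5, in a flank fit over the 154 origins whose medians were 0.49, 0.29 and 0.35. The flank comparison was added after the profiles had been seen. Under TMM over the flanks the changes were 1.13, 1.62 and 1.54 at R4 and 0.82, 1.81 and 1.73 at R5. Since the study's methods name a longer release for dbf4∆C, genotype and release time cannot be told apart in its flanks and in the shape of its profile. The same holds for its origin levels and arm ratios.

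The shape differed between the truncation and the point mutants. At 5 to 10 kb right of R4 the mean level was 3.89 in dbf4∆C, 3.65 in dbf4-Zn*1 cells and 3.40 in dbf4-Zn*2, against 0.54 in WT, and at R5 it was 3.94, 6.23 and 5.82, against 0.66 in WT. In dbf4∆C there was no summit at R4, where the profile held 3.79 at the peak bin, 3.92 at 5 kb, 3.67 at 10 kb and 3.20 at 20 kb to the right, and at R5 4.76, 3.92, 3.62 and 2.14. In dbf4-Zn*1 the same distances from R4 gave 15.1, 6.02, 1.67 and 0.26, and in WT 17.1, 1.04, 0.27 and 0.16. At 20 kb from R4 the dbf4∆C profile thus still stood above the genome mean, whereas dbf4-Zn*1 and WT were both well below it.

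R4 and R5 flanks parted with Fkh1 as the summits had. R4 flanks held 6.83 and 6.99 in fkh1∆ dbf4-Zn*1 and 6.28 and 6.23 in fkh1∆ dbf4-Zn*2, which was 0.30 ± 0.08 and 0.28 ± 0.08 above dbf4-Zn*1 and dbf4-Zn*2 (adjusted p = 0.000808 and 0.00228, edgeR). R5 flanks held 2.87 and 2.99 in fkh1∆ dbf4-Zn*1 and 2.69 and 2.72 in fkh1∆ dbf4-Zn*2, which was -1.40 ± 0.09 and -1.41 ± 0.09 against the dbf4-Zn* strains (adjusted p = 4.72e-21 and 3e-21, edgeR). These origins lie 53.7 kb apart on the same arm. L1 flanks also fell with Fkh1 loss in the dbf4-Zn* strains (-1.33 ± 0.10 and -1.32 ± 0.10), as did L4 flanks (-1.15 in fkh1∆ dbf4-Zn*1), and L3 flanks rose (0.61 and 0.59).

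**Figure D4:**
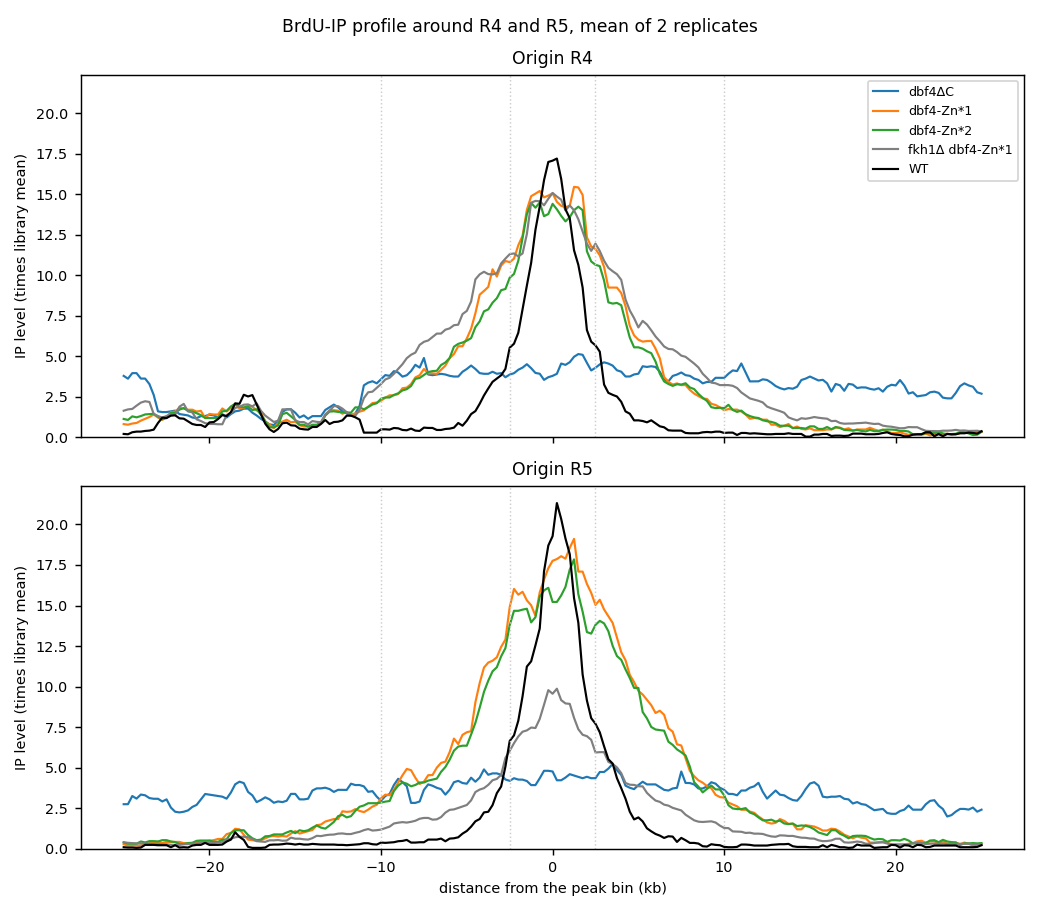
Mean IP level (times the library mean, 2 replicates) against distance from the R4 (upper) and R5 (lower) peak bin in dbf4∆C, dbf4-Zn*1, dbf4-Zn*2, fkh1∆ dbf4-Zn*1 and WT, with dotted lines at 2.5 and 10 kb on each side. Around R5 fkh1∆ dbf4-Zn*1 lies under dbf4-Zn*1, with flanks of 2.93 against 7.74, around R4 it does not, with 6.91 against 5.59, and dbf4∆C has no sharp summit at either.

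Over all 9 origins the flank calls were mixed. Flanks were higher than in WT at 6 members in dbf4∆C, 5 in dbf4-Zn*1 cells and 5 in dbf4-Zn*2 (61.7%, 55.2% and 55.8% of all origins) and lower at 1, the R2 flank (18.8%, 27.9% and 24.7%), which contains the 715.2-kb site. In ctf19∆ 8 were higher (76% of all), with 0.95 ± 0.09 at R4 and 1.14 ± 0.09 at R3. In ctf19∆ fkh1∆ fkh2-dsm 7 were higher and 2 lower (50.6% and 32.5% of all), in fkh1∆ fkh2-dsm 2 and 2 (50.6% and 29.2%), in fkh1∆ 3 and 4 (59.1% and 20.8%), in fkh1∆ dbf4-Zn*1 4 and 3 (60.4% and 24%) and in fkh1∆ dbf4-Zn*2 4 and 3 (56.5% and 23.4%). Against dbf4-Zn*1 and dbf4-Zn*2, 5 were lower in each double mutant and 2 higher (40.9% and 46.8% of all against dbf4-Zn*1, 40.3% and 44.8% against dbf4-Zn*2). Scaled on the flanks (TMM), 5 members were higher and 3 lower in dbf4∆C (39% and 37.7% of all). In dbf4-Zn*1 4 were higher and 4 lower (40.9% and 45.5%), in dbf4-Zn*2 4 and 4 (39% and 43.5%) and in ctf19∆ 5 and 2 (20.1% and 31.8%). In ctf19∆ fkh1∆ fkh2-dsm 4 and 2 were higher and lower (42.2% and 44.8%), in fkh1∆ fkh2-dsm 1 and 5 (41.6% in each direction) and in fkh1∆ 2 and 5 (35.7% and 37.7%). In fkh1∆ dbf4-Zn*1 and fkh1∆ dbf4-Zn*2 they were 3 and 5 (41.6% and 39.6%, and 40.3% and 39.6%). With the Total library's sum as library size no flank passed, and no member had an unadjusted p under 0.05. As at the origin windows, that scaling sets the WT replicates far apart, so the absence of calls decides nothing.

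The loss of Fkh1, of Fkh1 together with Fkh2 function, and of Fkh2 function where Fkh1 was already missing were compared within backgrounds. In ctf19∆ fkh1∆ fkh2-dsm against ctf19∆, 3 members were lower (40.3% of all origins), L4, L1 and R3, and under TMM R1, R4 and R5 were called higher as well (29.9% of all origins lower and 41.6% higher). In fkh1∆ fkh2-dsm against fkh1∆, L3, R4 and R3 were lower (29.9% of all), and under TMM L3 and R4 (25.3%). Removing Fkh1 from dbf4-Zn*1 and from dbf4-Zn*2 lowered L4, L1 and R5 (35.7% and 34.4% of all) and raised L3 and R2 (30.5% and 29.9%), with the same 5 calls and R4 higher in addition under TMM (27.9% and 29.9% of all lower, 40.9% and 41.6% higher).

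The effects of Fkh loss differed between backgrounds at several members, on the log2 scale of library-scaled levels. The fkh1∆ effect was less negative in dbf4-Zn*1 than in WT at 5 members (41.6% of all origins) and in dbf4-Zn*2 at 7 (47.4%), and the fkh1∆ fkh2-dsm effect was less negative in ctf19∆ than in WT at 6 (59.7%). The medians over all origins were 0.50, 0.65 and 0.86. Under TMM the difference was called at L4 and L3 for both dbf4-Zn* alleles (27.3% and 29.2% of all), and at L4, L3, L2, R4 and R5 for ctf19∆ (22.1%). L4 was under the genome mean in every library without Fkh1 and its direction is partly set by the choice of origins, so its calls are a description. DESeq2 with its own size factors called no member higher in either dbf4-Zn* background (2 lower in dbf4-Zn*1 and 1 lower in dbf4-Zn*2; 2 and 3 members at an unadjusted p under 0.05), so the direction for these alleles depends on the scaling, and it called 3 higher for ctf19∆. Leaving out 1 library left 2 to 6 calls for either dbf4-Zn* allele and 5 to 8 for ctf19∆. For dbf4-Zn*1, 3 calls were left without WT replicate 2, fkh1∆ replicate 1 or fkh1∆ dbf4-Zn*1 replicate 1, and 2 without dbf4-Zn*1 replicate 1 or fkh1∆ dbf4-Zn*1 replicate 2. For dbf4-Zn*2, 3 were left without WT replicate 2 or dbf4-Zn*2 replicate 1, 4 without fkh1∆ replicate 1 and 2 without fkh1∆ dbf4-Zn*2 replicate 1.

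The long arms of chromosome VII moved apart in BrdU signal. Mean IP per bin on the left and right arms was 0.578 and 1.31 in dbf4∆C cells, 0.419 and 1.15 in dbf4-Zn*1 cells and 0.429 and 1.13 in dbf4-Zn*2 cells, against 0.615 and 0.874 in WT. The log2 of left over right was -1.21 and -1.15 in dbf4∆C cells, -1.52 and -1.40 in dbf4-Zn*1 cells and -1.40 and -1.38 in dbf4-Zn*2 cells, against -0.50 and -0.52 in WT, with no overlap. So the left arm held less than the right arm in WT already, and the gap widened. The change against WT was -0.68 ± 0.06 in dbf4∆C, -0.95 ± 0.06 in dbf4-Zn*1 cells and -0.89 ± 0.06 in dbf4-Zn*2 (adjusted p over 16 chromosomes = 8.94e-10, 2.01e-12 and 6.8e-12, limma).

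Loss of the forkhead proteins shifted the arms less. The change against WT was -0.39 ± 0.06 in fkh1∆, -0.42 ± 0.06 in fkh1∆ fkh2-dsm cells and -0.51 ± 0.06 in ctf19∆ fkh1∆ fkh2-dsm (adjusted p = 1.08e-05, 6.46e-07 and 4.08e-08, limma). It was -0.88 ± 0.06 in fkh1∆ dbf4-Zn*1 and -0.78 ± 0.06 in fkh1∆ dbf4-Zn*2, which differed from dbf4-Zn*1 and dbf4-Zn*2 by 0.07 and 0.11 (adjusted p = 0.208 and 0.0758, limma). Over the origin windows alone the direction of these 2 differences turned. Those windows include L4, which passed the peak threshold through strains that have Fkh1. A left-arm fall without Fkh1 is therefore partly set by the choice of origins. The log2 ratio of the windows was -1.87 and -1.84 in fkh1∆ dbf4-Zn*1 against -1.31 and -1.23 in dbf4-Zn*1, and -1.79 and -1.75 in fkh1∆ dbf4-Zn*2 against -1.16 and -1.27 in dbf4-Zn*2, with differences of -0.58 ± 0.12 and -0.56 ± 0.12 (adjusted p over 14 chromosomes = 0.000477 and 0.000639, limma; 71.4% and 85.7% of these chromosomes were called). On that measure dbf4∆C held -1.39 and -1.29, against -0.16 and -0.15 in WT. The right-arm windows include R2, which held 7.05 and 5.46 in dbf4∆C against 3.86 and 2.78 in WT. R2 thus enters this shift, and the ratio without it was not computed. In ctf19∆ the log2 ratios over all bins, -0.55 and -0.53, differed from WT by -0.04 ± 0.06 (adjusted p = 0.589, limma). After the library's median bin was subtracted the ratio was -2.32 and -2.70 in dbf4-Zn*1, -2.50 and -2.85 in dbf4-Zn*2, -2.02 and -2.51 in fkh1∆ and -1.02 and -1.26 in ctf19∆, against -0.75 and -0.78 in WT. These values carry no test, and on this measure ctf19∆ did not overlap WT.

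Chromosome VII was not alone in this. The left over right ratio was called changed on 93.8% of the 16 chromosomes in dbf4∆C and dbf4-Zn*1, 87.5% in dbf4-Zn*2, 50% in ctf19∆, 93.8% in fkh1∆ fkh2-dsm cells and in ctf19∆ fkh1∆ fkh2-dsm, 37.5% in fkh1∆ and 93.8% in both fkh1∆ dbf4-Zn* strains. By the size of its change chromosome VII ranked 5 of 16 in dbf4∆C, 6 in dbf4-Zn*1, dbf4-Zn*2 and both double mutants, 10 in fkh1∆ fkh2-dsm and ctf19∆ fkh1∆ fkh2-dsm, and 2 in fkh1∆. In Total the ratio on chromosome VII changed by -0.13 ± 0.02 in dbf4∆C (adjusted p = 7.8e-06, limma), where 81.2% of chromosomes were called, and by -0.05 in both fkh1∆ dbf4-Zn* strains (adjusted p = 0.0211 and 0.0212, limma; 68.8%). The 2 calls at -0.05 were lost without WT replicate 1 (-0.047 in both) or WT replicate 2 (-0.05 in both). They were also lost without replicate 1 of the double mutant itself (-0.042 for fkh1∆ dbf4-Zn*1 and -0.044 for fkh1∆ dbf4-Zn*2) and without fkh1∆ dbf4-Zn*2 replicate 2 (-0.054).

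**Figure D5:**
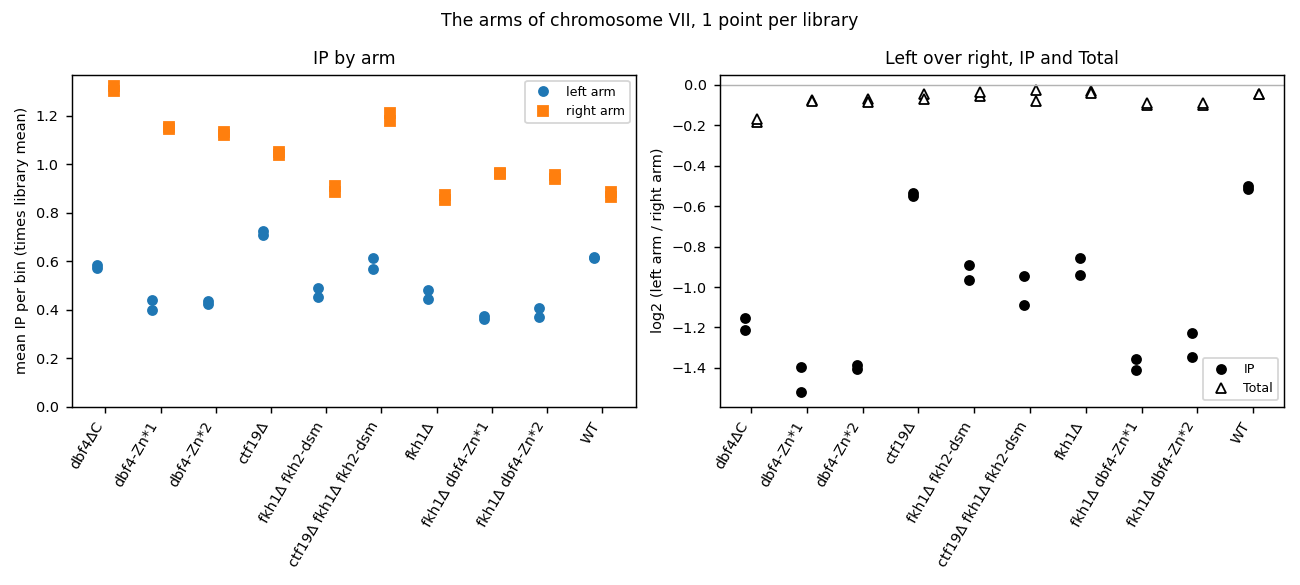
Mean IP per bin (times the library mean) on the left and right arms of chromosome VII (left panel) and log2 of left over right arm in IP and Total (right panel), 1 point per library, by strain with WT last. The IP ratio is -1.15 or lower in dbf4∆C and in all 4 strains with a dbf4-Zn* allele and -0.55 to -0.50 in ctf19∆ and WT, and the Total points lie much nearer to 0 in every strain.

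Total levels at the 9 origins ran from 0.720 to 2.79, apart from 0.616 at R3 in ctf19∆ fkh1∆ fkh2-dsm replicate 2 and 0.111 at L4 in the shallow fkh1∆ fkh2-dsm replicate 2. L3 stood at 0.914 and 0.808 in dbf4∆C cells, 0.949 and 0.956 in dbf4-Zn*1 cells and 1.00 and 0.904 in dbf4-Zn*2 cells, against 1.43 and 1.30 in WT, so the origin that lost most BrdU also had no excess of DNA over the genome mean in these strains. Its log2 change was -0.69 ± 0.18, -0.52 ± 0.17 and -0.52 ± 0.17 (adjusted p = 0.00239, 0.0294 and 0.0247, edgeR). In all, 3 members were lower in dbf4∆C (L3, L1 and R5; 35.1% of all origins), 1 in dbf4-Zn*1 (14.3%) and 2 in dbf4-Zn*2 (L3 and L1; 16.9%). In the strains without Fkh1, 4 were lower in fkh1∆ fkh2-dsm (L4, R2, R4 and R5; 20.1%), 2 in fkh1∆ (L1 and R5; 20.8%), and 1 each in ctf19∆ fkh1∆ fkh2-dsm (L3; 16.2%), fkh1∆ dbf4-Zn*1 (L1; 16.9%) and fkh1∆ dbf4-Zn*2 (L4; 14.3%, with R2 higher, 10.4%). R2 was the member lower in ctf19∆ (13%).

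Most of these Total calls rested on single libraries. Leaving out any of the 4 libraries compared left no call in dbf4-Zn*1, dbf4-Zn*2, fkh1∆ dbf4-Zn*1 or fkh1∆ dbf4-Zn*2. In dbf4∆C 1 call was left without its replicate 2, in ctf19∆ none without its replicate 2, and in fkh1∆ fkh2-dsm 2 without its replicate 1 or WT replicate 2. In fkh1∆ none was left without WT replicate 2 or fkh1∆ replicate 1 and 1 without WT replicate 1, and in ctf19∆ fkh1∆ fkh2-dsm none without WT replicate 1 but 2 without either of its own replicates. Under TMM the only call in dbf4∆C was R2, higher than in WT by 0.49 on the log2 scale (5.84% of all), and none was made in dbf4-Zn*1 or dbf4-Zn*2, where DESeq2 made none and 1 and 0 members had an unadjusted p under 0.05 by DESeq2. In fkh1∆ dbf4-Zn*1 and fkh1∆ dbf4-Zn*2 TMM called R2 and R4 higher (14.3% of all in each) and no member lower, as did DESeq2, so the direction of the Total calls in these strains depends on the scaling. In fkh1∆ fkh2-dsm TMM called R1 higher (0.55, adjusted p = 0.0397, edgeR; 6.49% of all) and R2 and R4 lower (-0.50 and -0.66; 9.74% of all), whereas L4 and R5 were no longer called.

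Binding of FLAG-dbf4-aaHH and FLAG-Dbf4 was compared at the same windows, and no member passed the test. R5 held 1.62 and 1.26 times the library mean in FLAG-dbf4-aaHH against 1.21 and 1.46 in FLAG-Dbf4, R4 held 1.10 and 0.932 against 1.33 and 0.708, and R2 held 1.90 and 1.80 against 1.33 and 1.81. L3, which lost most BrdU signal in the zinc finger mutants, held 0.924 and 0.995 in FLAG-dbf4-aaHH against 0.632 and 1.04 in FLAG-Dbf4. The ranges overlapped at each of these 4. L2 held 0.817 and 0.726 in FLAG-dbf4-aaHH against 1.11 and 0.905 in FLAG-Dbf4, with no overlap, and its log2 difference under TMM was -0.51 ± 0.19 (adjusted p = 0.578, edgeR). The log2 differences of the 9 ran from -0.38 ± 0.52 at L2 to 0.31 ± 0.35 at R2, and no member and no origin of 154 passed (0%; none at an unadjusted p under 0.05 by edgeR, 11 under TMM and 2 by DESeq2, of which 1 and 0 were members). The standard errors over the 9 were 0.35 to 0.60, and 0.19 to 0.28 under TMM. The rDNA took 51.2% to 67.9% of the read ends.

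Beyond the 9 origins, peaks taken from the 10 strain profiles gave 26 sites on the arms, of 358 in the genome, of which 17 were over 5 kb from every origin. Each was picked because some strain was high there, so the values are descriptions. At 979.8 kb, in SDA1, a gene of ribosome assembly, the level was 6.37 and 8.90 in ctf19∆ fkh1∆ fkh2-dsm, 5.96 and 4.12 in fkh1∆ fkh2-dsm, 1.91 and 2.13 in fkh1∆ and 0.815 and 0.738 in ctf19∆, against 0.665 and 0.671 in WT. This right-arm site was below the genome mean in all 5 strains with Fkh1 and in both fkh1∆ dbf4-Zn* strains. A site at 1000.15 kb, between PUP2, a proteasome subunit gene, and the enolase gene ENO1, held 2.96 and 2.20 in ctf19∆ fkh1∆ fkh2-dsm cells and 2.52 and 2.40 in fkh1∆ fkh2-dsm, against 0.515 and 0.522 in WT.

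Other sites were high in dbf4∆C or in WT. The 864.4-kb site, in the ubiquitin ligase gene UBR1 between R4 and R5, held 4.03 and 3.48 in dbf4∆C cells, 0.256 and 0.108 in dbf4-Zn*1 cells and 0.395 and 0.402 in dbf4-Zn*2 cells, against 0.191 and 0.0745 in WT. At 827.1 kb, in the translation factor gene TIF4631 to the left of R4, dbf4∆C held 5.36 and 5.06, dbf4-Zn*1 4.75 and 3.88 and fkh1∆ dbf4-Zn*1 6.20 and 5.60, against 0.491 and 0.546 in WT. This site lies inside the R4 flank described above, where the mean level at 5 to 10 kb to the left was 4.17 in dbf4∆C cells, 3.91 in dbf4-Zn*1 cells and 5.67 in fkh1∆ dbf4-Zn*1, against 0.62 in WT. Some weaker sites were high in WT and lower in the mutants. The 162.9-kb site, in the autophagy kinase gene ATG1, held 0.789 and 0.786 in dbf4∆C cells, 0.968 and 1.55 in dbf4-Zn*1, 2.89 and 2.26 in ctf19∆ and 0.775 and 1.40 in fkh1∆, against 5.10 and 4.97 in WT. The 659.9-kb site, in NNF2, held 0.763 and 0.621 in dbf4∆C cells, 1.12 and 1.06 in dbf4-Zn*1, 1.92 and 1.82 in ctf19∆ and 1.10 and 0.858 in fkh1∆, against 4.15 and 4.27 in WT.

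For comparison with the arms, the 2 origins that flank the centromere of chromosome VII stood at 1.56 and 0.752 in dbf4∆C cells, 6.96 and 3.52 in dbf4-Zn*1 and 8.24 and 2.69 in ctf19∆, against 18.0 and 16.3 in WT (mean of 2 replicates, at 484.5 and 508.9 kb). They held 16.7 and 20.0 in fkh1∆ fkh2-dsm, where the median of the arm origins was 3.61, against 10.7 in WT. In that mutant R5 held 10.1 and 10.3 and R4 held 7.97 and 6.86 in the 2 replicates. L4 was the lowest arm origin there, at a mean of 0.386 from windows of 10 and 3 counts. The direction at L4 is partly set by the choice of origins.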

How the data were processed

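Per the labels, the submitters' processing notes name Bowtie2, SAMtools and bedtools without versions, and the genome build is not given in the sources used here. For each of the 20 IP and 20 Total libraries the authors deposited read counts per 50-bp bin, not smoothed or scaled, in which a read is counted in each bin it overlaps (a lone read spans a median of 2 bins). For the 4 ChIP libraries the authors deposited aligned read ends with a mapping-quality score, and the ends were counted here per window. Sequencing was done at a pair of facilities, which the labels do not assign to libraries.

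Each IP profile was divided by its mean, the 20 were averaged, and a running median over 1 kb was taken. Bins of at least 2 times the mean with no higher bin within 5 kb gave 172 peaks, of which 3 in the rDNA and 15 without a full window were left out. The smoothing was chosen after the files had been read. Origins were named by position, and every IP library's value is given for the highest and lowest WT origin of each arm and for the largest fall and rise of each comparison. The members, lists and tests were chosen with earlier results of these data known.

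Window counts of all 154 origins were fitted with edgeR 4.0.16 (quasi-likelihood, all 20 libraries of a kind, library size the sum of all bins) and p-values adjusted by Benjamini-Hochberg over all origins, at a threshold of 0.05. The log2 ratio of left to right arm was fitted with limma 3.58.1 over 16 chromosomes. Both fits were run on simulated data. For edgeR the simulated rises and falls were equal in number, so a shared fall of most origins was not simulated. DESeq2 1.42.0 and R 4.3.3 were also used, and Python 3.11.15 with pandas 2.3.3, matplotlib 3.10.9, scipy 1.17.1 and numpy 2.4.6. The alternatives were TMM, DESeq2, a replicate block, other windows and peak sets, the Total library's sum as library size, and leaving out each replicate. The flank fit was added after the profiles had been seen. Nothing states that replicates were separate cultures, so p-values measure the spread between these libraries, which may be technical, and an exact permutation test of 2 against 2 cannot go below 0.33. Genes were named from the RefSeq R64 table by order along the chromosome, and no sequences were used.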

Additional observations from a re-analysis of the deposited data

Results flagged for a closer look

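The effect of losing Fkh1, or Fkh1 with fkh2-dsm, differed between backgrounds at several arm origins by an interaction term in edgeR's quasi-likelihood fit (log2 scale, adjusted over all 154 origins). Positive values mean that the effect was less negative, or more positive, in the mutant background than in WT. The medians over all origins, 0.50 for dbf4-Zn*1, 0.65 for dbf4-Zn*2 and 0.86 for ctf19∆, were positive as well.

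In dbf4-Zn*1 the fkh1∆ effect exceeded that in WT by 1.16 at L4, 1.03 at L3, 0.84 at R3, 0.78 at R2 and 0.72 at L2 (adjusted p from 0.00226 to 0.0287, edgeR). In dbf4-Zn*2 it did so by 1.63 at L4, 1.13 at L3, 0.84 at R3, 0.74 at L2, 0.73 at R2, 0.49 at R4 and 0.46 at R5 (adjusted p from 0.000592 to 0.0334, edgeR). Scaled on the origin windows (TMM), L4 and L3 were still called for either allele (0.89 and 0.77 for dbf4-Zn*1, 1.27 and 0.76 for dbf4-Zn*2) and the others were not, while DESeq2 called no member higher. With Fkh1 present, L4 stood at 2.25 to 3.51 in the dbf4-Zn* libraries and at 6.49 and 7.50 in WT, and without Fkh1 it lay below the genome mean in every library. How far the smaller fall of L4 reflects this lower start was not tested. As its direction is partly set by the choice of origins, its values here are a description.

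The fkh1∆ fkh2-dsm effect in ctf19∆ exceeded that in WT by 2.12 at L4, 1.78 at L3, 1.49 at L2, 1.47 at R4, 1.30 at R1 and 1.14 at R5 (adjusted p from 4.08e-06 to 0.00507, edgeR). Under TMM the values were 1.70, 1.37, 1.09, 1.06, 0.88 and 0.73, called at all of these but R1. The fkh1∆ fkh2-dsm replicate 2 library in this comparison is the shallowest IP library. The L4 window held 10 and 3 counts in fkh1∆ fkh2-dsm and 36 and 25 in ctf19∆ fkh1∆ fkh2-dsm, all at levels below the genome mean. The L4 value thus rests on few counts and is a description.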

How the results depend on the processing

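The counts of called members depend on how libraries are scaled (the triple mutant is ctf19∆ fkh1∆ fkh2-dsm). With TMM over origin windows, IP calls numbered 2 in dbf4∆C, 5 in dbf4-Zn*1, 5 in dbf4-Zn*2, 1 in ctf19∆, 6 in the triple mutant against ctf19∆, and 2 for the fkh1∆ effect in dbf4-Zn*1 and 2 in dbf4-Zn*2. Total calls were 1 in dbf4∆C, 0 in dbf4-Zn*1, dbf4-Zn*2, the triple mutant and fkh1∆, and 2 in fkh1∆ dbf4-Zn*1. With DESeq2, IP calls numbered 4 in dbf4∆C, 5 in dbf4-Zn*1, 4 in dbf4-Zn*2, 2 in ctf19∆, 4 in fkh1∆ fkh2-dsm and 8 in the triple mutant against ctf19∆, and the differences between backgrounds gave 2, 1 and 3. Its Total calls were 1 in dbf4∆C, 0 in dbf4-Zn*1, dbf4-Zn*2, the triple mutant and fkh1∆, and 2 in fkh1∆ fkh2-dsm and fkh1∆ dbf4-Zn*1. With the Total library's sum as the size of the IP library, calls were 0 in all 16 IP and all 13 flank comparisons, where 0 to 1 members had an unadjusted p under 0.05. This scaling sets the WT replicates far apart, so the absence of calls decides nothing.

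Other peak sets hold other numbers of members. Among the 26 sites of the strain profiles, which were picked for a high level in some strain, IP calls were 22 in dbf4∆C, 17 in dbf4-Zn*1, 20 in dbf4-Zn*2, 17 in ctf19∆, 17 in fkh1∆ fkh2-dsm, 20 in the triple mutant, 16 in fkh1∆, 18 in fkh1∆ dbf4-Zn*1 and 20 in fkh1∆ dbf4-Zn*2. They were 11 in the triple mutant against ctf19∆, 7 in fkh1∆ fkh2-dsm against fkh1∆, 13 and 9 in the double mutants against dbf4-Zn*1 and dbf4-Zn*2, and 10 and 12 for the fkh1∆ effect. Total calls there were 5 in dbf4∆C, 0 in dbf4-Zn*1, 1 in dbf4-Zn*2, 0 in ctf19∆, 1 in fkh1∆ fkh2-dsm, 3 in fkh1∆ dbf4-Zn*1 and 0 in fkh1∆ dbf4-Zn*2. Among the 24 peaks of the unsmoothed profile they were 14 in fkh1∆ fkh2-dsm, 11 in the triple mutant (5 against ctf19∆), 20 in fkh1∆ dbf4-Zn*1 (13 against dbf4-Zn*1) and 19 in fkh1∆ dbf4-Zn*2 (16 against dbf4-Zn*2). In 1000-bp windows, Total calls were 5 in dbf4∆C, 3 in dbf4-Zn*1, 4 in the triple mutant, 5 in fkh1∆, 3 in fkh1∆ dbf4-Zn*1 and 5 in fkh1∆ dbf4-Zn*2, and the WT median level was 11.82. Without R2, Total calls were 0 in ctf19∆ and 1 in fkh1∆ dbf4-Zn*2.

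Same-numbered libraries shared little of their origin-by-origin deviations: over 45 pairs of strains the correlation ran from -0.227 to 0.187 (median -0.0213), with 5 over 0.1. The correlation was taken over origins after library scaling, so it cannot show a shift common to a whole library. With the replicate block, Total calls were 2 in dbf4-Zn*1 and 1 in fkh1∆ dbf4-Zn*2, and no other count moved by over 1.5 times.

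Leaving out single libraries left these ranges of IP calls: 3 to 5 in fkh1∆ dbf4-Zn*1 against dbf4-Zn*1, 2 to 6 for the fkh1∆ effect in either dbf4-Zn* strain. Total calls ranged over 1 to 3 in dbf4∆C, 0 to 1 in ctf19∆, 2 to 3 in fkh1∆ fkh2-dsm, 0 to 2 in the triple mutant and in fkh1∆, and were 0 in dbf4-Zn*1, dbf4-Zn*2 and both fkh1∆ dbf4-Zn* strains. The left over right ratio in Total, which was not called in these strains, changed sign in ctf19∆ (-0.02326 to 0.000855), fkh1∆ fkh2-dsm (-0.007031 to 0.01026) and the triple mutant (-0.03549 to 0.02209), and ran from -0.05542 to -0.04168 in fkh1∆ dbf4-Zn*1 and from -0.054 to -0.04421 in fkh1∆ dbf4-Zn*2. Among recomputed counts, levels and arm ratios, 135 moved, 4 reversed and 7 were weaker, and 428 kept their direction and side of the threshold. Of the changes of named origins, 188 kept both and 28 kept their direction but not their call. With the median bin subtracted, the fit could not be run for chromosome VII, since dbf4∆C replicate 1 and fkh1∆ fkh2-dsm replicate 1 have no value there. The shallowest IP library is fkh1∆ fkh2-dsm replicate 2. Where no construction is named above, the cause was not tested.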
